A study of Bos taurus with 13 samples.

Results

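A set of 93 genes was followed that was raised in bovine mesenchymal stem cells after 3 days of heat, but changed little after 6 h of heat or after 6 h of heat followed by recovery. The genes were chosen from 16595 in the deposited table by their group means of log2(value + 1), where the value is a read count normalised for library depth. A gene was taken when its mean over the 13 libraries was from 50 to under 20000 and its 3-day heat difference was at least 1 on the log2 scale, which is a factor of 2. Its difference at 6 h also had to be under 0.3 and its difference after recovery under 0.5 in size. All 93 genes entered the tests across genes, since each had a value of at least 10 in at least 2 libraries. These 3 heat differences chose the genes, so they are given below as descriptions, with no test.

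Mesenchymal stem cells are stromal cells that attach to plastic and can form bone, cartilage and fat. Those used here were primary cells of bovine umbilical cord at passages 2 to 4, from which polyadenylated RNA was sequenced. Every culture was grown in low-glucose medium with serum, and treatment began a day after seeding. The 6 h control was kept at 37 °C (n = 3), and the 6 h heat group at 40.5 °C (n = 3). The 3-day control stayed at 37 °C (n = 2) and the 3-day heat group at 40.5 °C (n = 3). The recovery group had 6 h at 40.5 °C and then 66 h at 37 °C (n = 2). Recovered reads per library ran from 14859428 to 39117065. The labels do not say whether replicates came from separate donors or cultures, so p-values measure the spread between these libraries, which may be technical. In the groups with n = 3, the library numbered 3 stood apart from those numbered 1 and 2. Squared differences between libraries, as a median over genes, were 7.27 to 12.9 times those of sampling noise in pairs with it. In other pairs they were 1.64 to 4.94 times, and these ratios also depend on read depth. The groups with n = 2 lack a library of that number.

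Cells that are warmed above their usual temperature respond within minutes to hours, when heat shock factors switch on chaperone genes that keep damaged proteins from aggregating. This early wave fades as chaperones accumulate and bind the factors again. Transcripts that rise only under lasting heat can reflect slower adjustments, among them changes of proliferation, secretion, matrix or differentiation. The deposited table gives Ensembl identifiers without gene names, and none were matched to names here, so the functions of the 93 genes, and the marker genes of the cell type, were not analysed here.

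The 93 genes rose by a median of 1.17 on the log2 scale after 3 days of heat, a factor of 2.24. In bulk libraries, more RNA per cell and more cells of a kind that expresses a gene cannot be told apart. The middle part of the distribution lay between 1.08 and 1.42, and the range was from 1.01 to 2.82. In 31 genes the difference was under 1.1, in 74 it was under 1.5, and in 8 it was at least 2 on the log2 scale. Much of the set thus lay close to the limit by which it was chosen. The 3 genes just inside it had differences from 1.007 to 1.011, and the 3 genes just outside that met the other limits had differences from 0.988 to 0.992. In all, 39 genes that met the other limits had a difference from 0.9 to under 1.

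In all 93 genes, the 3 heated libraries lay above both 3-day controls. Groups did not overlap in this direction in 32.2% of the 13684 tested genes, and because the choice of genes fixed the direction, nothing is read from the count. In limma, 88 of the 93 passed an adjusted p of 0.05 in this comparison, where 20.1% of tested genes were called higher, and nothing is read from that count either. Summed over the set, the values made up 0.925%, 0.924% and 1.19% of the library in replicates 1 to 3 of the 3-day heat group. They made up 0.362% and 0.397% in the 3-day control and 0.402% and 0.42% in the recovery group. At 6 h the shares were 0.43%, 0.446% and 0.532% at 37 °C and 0.465%, 0.473% and 0.588% at 40.5 °C. The 3-day heat libraries were thus the highest, with no overlap with any other group. The choice of genes set them above the 3-day control and recovery groups, so this too is a description.

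**Figure D1:**
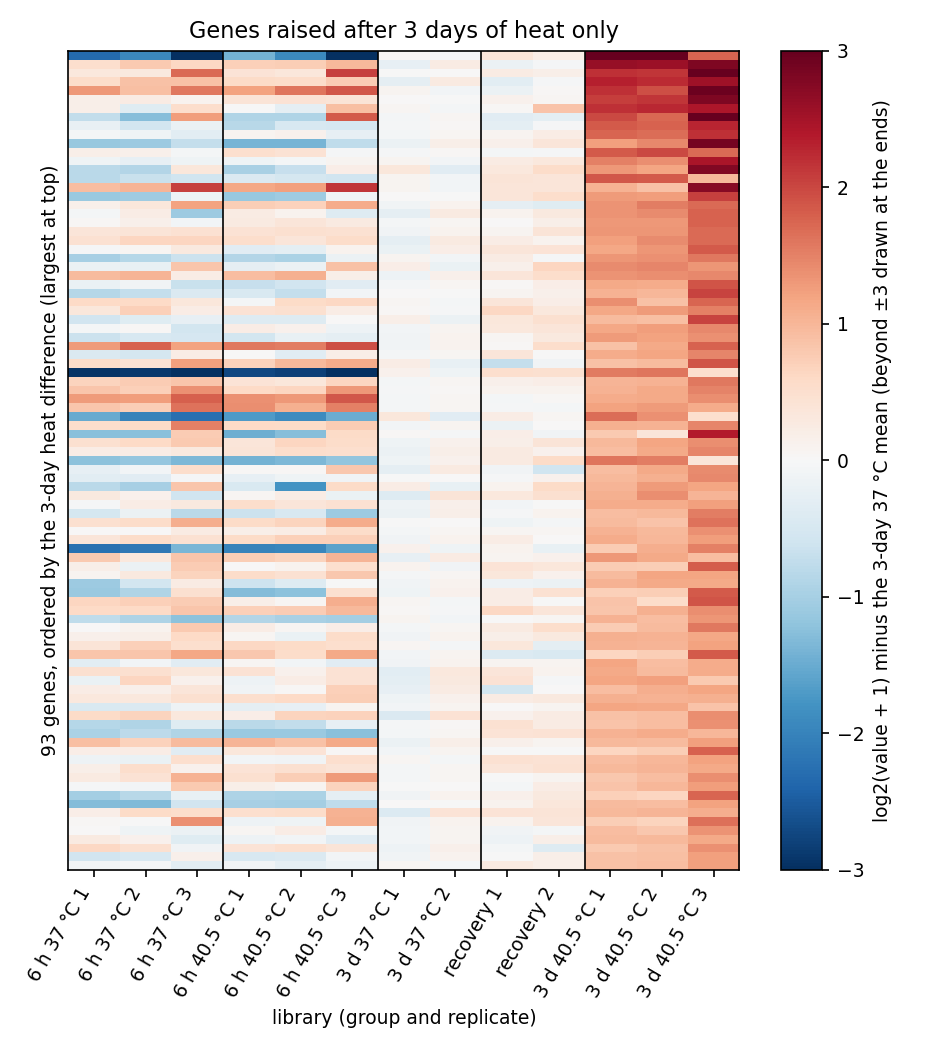
Rows are the 93 genes, ordered by their 3-day heat difference, and columns are the 13 libraries. Colour is log2(value + 1) minus the mean of the 3-day control, with values beyond 3 in size drawn at the ends of the scale. The 3-day heat libraries are raised in every row, the recovery libraries are mostly near 0, and the 6 h libraries are below 0 in some rows and above 0 in others.

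The genes covered a wide range of abundance. Their mean value over the libraries ran from 51.3 to 15040, with a median of 363, while the 11182 genes in the permitted mean range had a median of 671. In 15 genes the mean was under 100, and in 23 it was at least 1000. These 23 genes held 83.8% of the summed values of the set in the 3-day heat group. The 6 genes with a mean of at least 10000 had 3-day heat differences between 1.06 and 2.66.

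ENSBTAG00000012370 had the largest rise after 3 days of heat. Its normalised value was 1425, 1466 and 470 in replicates 1 to 3 of the 3-day heat group, against 143 and 136 in the 3-day control. The recovery group had 181 and 160. At 6 h it was 27.1, 36 and 9.17 at 37 °C and 51.8, 36.5 and 7.98 at 40.5 °C. Replicate 3 was the lowest library in each group that had one, and in the 6 h groups it rested on 8 and 7 reads. The heated 3-day libraries were above all others, and the 3-day difference was 2.82 on the log2 scale. It was 3.36 in replicates 1 and 2 and 1.74 in replicate 3.

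ENSBTAG00000007431 had the next largest rise and was the most abundant gene of the set. Its value was 36371, 35440 and 41245 in the 3-day heat group and 5055 and 7008 in the 3-day control. In the recovery group it was 5235 and 5796. At 6 h it was 8496, 10280 and 9167 at 37 °C, and 9792, 9912 and 11719 at 40.5 °C. The heated 3-day libraries thus stood well clear of the other 10, which lay between 5055 and 11719. The 3-day difference was 2.66, and this gene alone made up 0.156% of the summed values in the 3-day heat group.

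The 10 genes with the largest rises had 3-day differences from 1.87 to 2.82. The third of these, given without its identifier, had values of 1780, 1732 and 4399 in the 3-day heat group, against 385 and 394 in the 3-day control. It was also highest in replicate 3 at 6 h, with 1277 against 484 and 476 at 37 °C and 1625 against 520 and 495 at 40.5 °C. The replicate 3 libraries of the 6 h groups thus came close to replicates 1 and 2 of the 3-day heat group. The eighth had 661, 554 and 1541 in the 3-day heat group and 160 and 176 in the 3-day control, and at 6 h it was 402 and 607 in replicate 3 but between 68.7 and 99.9 in replicates 1 and 2.

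This lean towards replicate 3 was common in the set. In 75 of the 93 genes, replicate 3 of the 3-day heat group was above replicates 1 and 2, compared with 42.3% of tested genes. The same held in 57 genes in the 6 h control and in 62 in the 6 h heat group, compared with 44.8% and 40.8% of tested genes. In 43 genes it held in all 3 groups, compared with 18.9% of tested genes. These counts are descriptions, since the same libraries entered the choice. Over the set, the median excess of replicate 3 was 0.35 in the 3-day heat group, 0.21 in the 6 h control and 0.28 in the 6 h heat group on the log2 scale. The 3-day control had no replicate 3 to set against this excess, and the 3-day heat difference is therefore also given for replicates 1 and 2.

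With replicates 1 and 2 of the 3-day heat group alone, the median difference from the 3-day control was 1.07, and with replicate 3 alone it was 1.45. All 93 genes kept a difference above 0.5 in replicates 1 and 2, the lowest being 0.58, but 31 fell below 1. These 31 genes had a median of 0.9 in replicates 1 and 2 and of 1.4 in replicate 3, and in 20 of them replicate 3 was above replicates 1 and 2 in all 3 groups. When the whole rule was applied to replicates 1 and 2, 81 genes met it, of which 50 were among the 93. Group means from a fit with a term for replicate 3 gave 81 genes, of which 68 were among the 93.

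**Figure D2:**
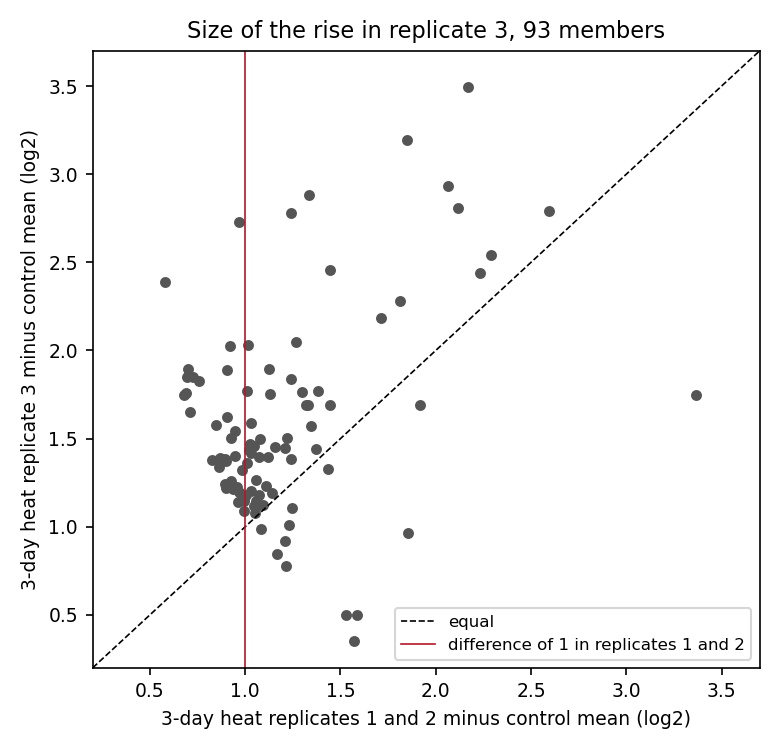
Each point is a gene of the set, with the log2 difference of replicates 1 and 2 of the 3-day heat group from the 3-day control mean on the horizontal axis, and that of replicate 3 on the vertical axis. Most points lie above the dashed line of equal size, and 31 lie to the left of the red line at 1.

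The 6 h and recovery differences were held near 0 by the choice of genes. At 6 h they ran from -0.29 to 0.3 with a median of 0.09, where that of all tested genes was -0.013, and 59 of the 93 were positive. The heated libraries were above all 6 h controls in 7 genes and below all of them in 2, where 20.6% and 22.2% of tested genes showed such separations. After recovery the differences ran from -0.44 to 0.48 with a median of 0.17, where that of all tested genes was -0.007, and 72 were positive. The shares of positive differences over all genes are not given, so nothing is read from these 2 counts of positive genes. Both recovery libraries were above both 3-day controls in 34 genes and below in 7, where the tested genes gave 24.1% and 25.7%. The recovery and 3-day heat differences share the 3-day control libraries, and a low control raises both.

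Under continued heat the set also exceeded the recovery group, by a median of 1.06. The 3-day heat libraries were above both recovery libraries in 92 genes, and such a separation was seen in 33.0% of tested genes. The exception, chosen for mention after its values were seen, had 389, 368 and 162 in the 3-day heat group and 152 and 188 in the recovery group, so that replicate 3 fell between the recovery libraries. Since the limits on the 3-day and recovery differences fix this contrast, it is a description.

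Among the 360 genes in the mean range with a 3-day heat difference of at least 1, the 93 were the minority without a marked change in the other comparisons. Of the 267 others, 252 exceeded the limit at 6 h, 234 of them with higher and 18 with lower values under heat, and 48 exceeded the limit after recovery, where 33 genes are in both counts. The median 3-day difference of the 267 genes was 1.26, and their median difference at 6 h was 0.64. The difference between 1.26 and the 1.17 of the set was not tested.

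To see whether such a pattern recurred in other libraries, the limits on the 3 heat differences were applied to the replicate 1 libraries alone. The 3-day heat difference was then read in replicate 2. The mean range was still taken over all 13 libraries, so the libraries read had that part in the choice. In replicate 1, 85 genes met the rule, of which 37 belonged to the 93. Their median 3-day difference was 1.21 in replicate 1 and 1.09 in replicate 2. In replicate 2 all 85 were above 0 and 49 (57.6%, 95% Wilson interval 47.0 to 67.6) were at least 1. Among all 11182 genes in the mean range, 2.77% reached 1 and 50.8% were above 0. Those genes were not chosen for a heat difference, so the comparison bears on the 3-day difference and not on the whole rule. Replicates 1 and 2 of the 3-day heat group were also the closest pair of libraries within a group, at 1.64 times sampling noise. Read in replicate 3 of the 3-day heat group against replicate 2 of its control, 82 of the 85 were above 0, with a lowest difference of -0.58. When genes were chosen in replicate 2 and read in replicate 1, 56 of 57 were above 0, with a lowest difference of -0.5. The limits on the other comparisons did not recur in all genes. Of the 85 genes, 55 were within the limit at 6 h in replicate 2, 65 were within the limit after recovery, and 21 met the whole rule again. The interval treats genes as independent, which they are not, and covers counting over genes alone.

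**Figure D3:**
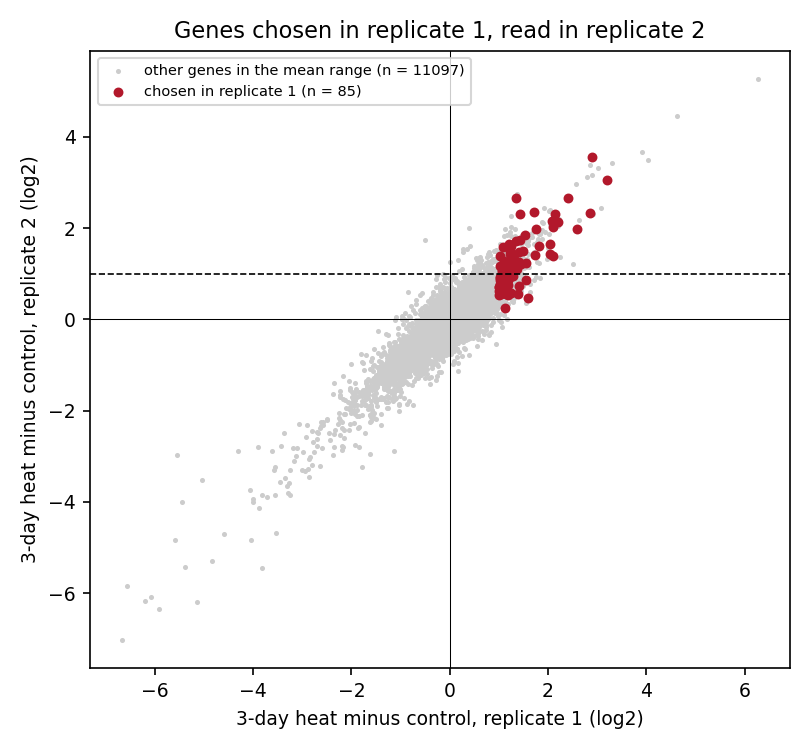
Points are the 11182 genes in the mean range, with the 3-day heat minus control difference (log2) in replicate 1 on the horizontal axis and in replicate 2 on the vertical axis. The 85 red points met the rule in replicate 1, and all of them lie above 0 in replicate 2, 49 at or above the dashed line at 1.

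The change with time at 37 °C was not used in the choice, and its size and direction varied over the set, from -1.44 to 3.2 on the log2 scale. Between the 6 h and the 3-day control, 18 of the 93 genes fell and 12 rose at an adjusted p of 0.05 in limma (Benjamini-Hochberg over 13684 genes). These are 19.4% and 12.9% of the set, and 32.3% in all. Of all tested genes, 13.6% fell and 11.7% rose, and 25.3% were called in all. Of the 11182 genes in the mean range, from which the set was drawn, 16.1% fell and 12.2% rose. Of the 267 other genes with a 3-day difference of at least 1, 11.2% fell and 16.9% rose. The shares of the set were above those of all tested genes but nearer to those in the mean range, and the differences were not tested. Both 3-day controls were below all 6 h controls in 35 of the 93 genes and above them in 23, where 27.3% and 25.8% of tested genes were. The median change of the set was -0.11, and that of all tested genes was -0.01. The 3-day control libraries also enter the 3-day heat difference, so that noise which lowered them would raise the heat difference and lower this change. The 6 h control also had a replicate 3, with a median excess of 0.21 in the set, and the 3-day control had none. The counts depended on the 3-day control libraries and on how replicate 3 was treated. Leaving out either 3-day control library left 1 in that group, and fewer genes were called, both in the set and over all tested genes. Within replicates 1 and 2 of all groups, 30 fell and 29 rose, where 21.7% and 21.8% of tested genes did, so the calls over all genes moved with those of the set.

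The difference of the 3-day heat group from the 6 h control is the sum of the change with time and the 3-day heat difference. Because the latter is at least 1 in every gene of the set, the change with time largely fixes this sum, and the levels below are descriptions. In the 18 genes that fell with time at 37 °C, the median change with time was -0.76, and the median difference of the 3-day heat group from the 6 h control was 0.45. In 6 of the 18 this difference was under 0.3 in size, and in 4 it was at least 1. The 3-day heat libraries overlapped the 6 h control in 7 genes and lay above it in 11, where 29.3% of tested genes lay above it. The median 3-day heat difference in these genes was 1.2.

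ENSBTAG00000047613 had the largest fall with time. Its value was 10856, 10559 and 15500 in the 6 h control and 4312 and 4613 in the 3-day control, a change of -1.44 on the log2 scale (SE 0.19, limma adjusted p 0.000685). With 3 days of heat it had 9593, 9768 and 11723. In the recovery group it was 4313 and 4602, and after 6 h of heat it was 11554, 11023 and 16342. The 3-day heat libraries thus overlapped the 6 h control and stood above the 3-day control and recovery libraries, which overlapped each other.

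ENSBTAG00000003130, a gene of low abundance, had the next largest fall among genes past the threshold. It had 59, 82.6 and 56.2 in the 6 h control and 21.7 and 25.6 in the 3-day control, a change of -1.42 (SE 0.29, limma adjusted p 0.00597). When replicate 1 of the 3-day control was left out, the adjusted p was 0.0621. With 3 days of heat it had 44.1, 53.3 and 82.8, which overlapped the 6 h control. In the recovery group its values were 24.1 and 34.7, and after 6 h of heat 72.6, 70.5 and 93.5.

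In the 12 genes that rose with time at 37 °C, the median change with time was 1.02. The 3-day heat group exceeded the 6 h control by a median of 2.25, with a range from 1.76 to 5.5, and an excess of more than 1 was fixed by the choice. ENSBTAG00000012370, described above, was among them, with a change of 2.68 with time (SE 0.74, limma adjusted p 0.0226). The adjusted p rose to 0.0551 when replicate 3 of the 6 h control was left out, and to 0.128 or 0.0873 when either 3-day control library was. The gene with the largest rise with time, given without its identifier, had 80.6, 83.4 and 44.7 in the 6 h control and 682 and 572 in the 3-day control. Its 3-day heat libraries had 1849, 1908 and 882, so that replicate 3 lay close to the recovery libraries, at 881 and 867.

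In the remaining 63 genes the change with time was not called, which does not show that there was none. Their median change was -0.09, with a range from -1.33 to 0.99, and the 3-day heat group exceeded the 6 h control by a median of 1.16. In 55 of them the 3-day heat libraries were above all 6 h controls, again beside 29.3% of tested genes. ENSBTAG00000007431, by contrast, was among the genes that fell, with a change of -0.64 with time (SE 0.14, limma adjusted p 0.00825), and yet its 3-day heat level exceeded the 6 h control by 2.02. Without replicate 1 of the 3-day control the change was -0.41 (adjusted p 0.109).

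**Figure D4:**
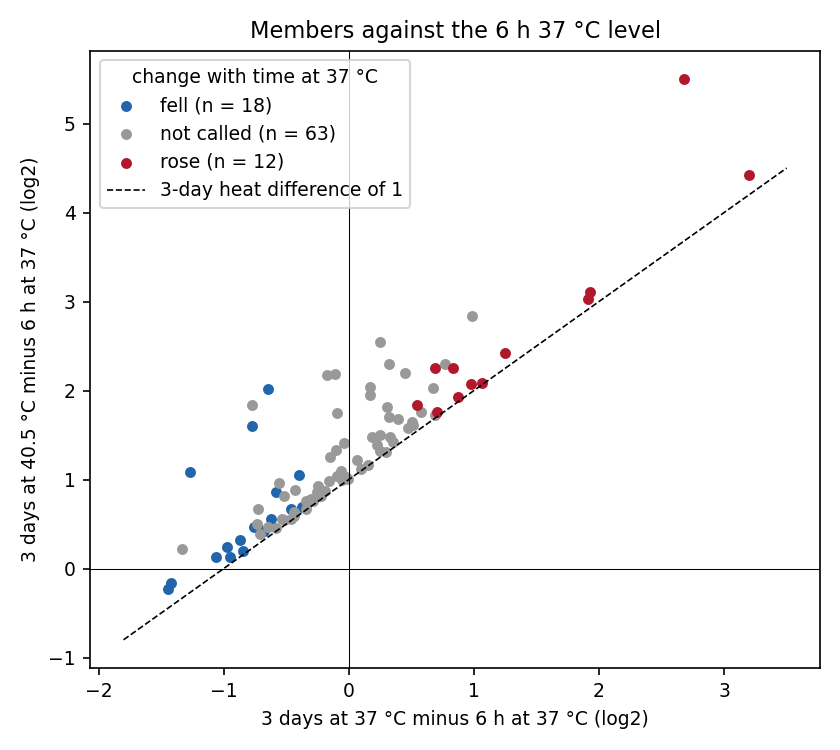
Each point is a gene of the set, with the change from 6 h to 3 days at 37 °C (log2) on the horizontal axis and the difference of the 3-day heat group from the 6 h control on the vertical axis. Both axes share the 6 h control libraries. Colours mark the 18 genes that fell, the 12 that rose and the 63 that were not called. Points above the dashed line have a 3-day heat difference of at least 1, and those near the horizontal line at 0 had 6 h control levels after 3 days of heat.

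Over the set, 78 genes had all 3-day heat libraries above the 6 h control, where 29.3% of tested genes did, and none had them all below it. They were above the 6 h heat group in 76 genes, where 27.2% of tested genes were. In 72 genes the 3-day heat libraries were above all 10 other libraries, where 10.3% of tested genes were, and in the other 21 at least 1 library of another group reached into their range. The difference from the 6 h control was at least 1 in 53 genes, from 0.3 to under 1 in 33 and under 0.3 in size in 7. These counts follow in part from the rule, which holds the 6 h heat group near the 6 h control and the recovery group near the 3-day control.

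**Figure D5:**
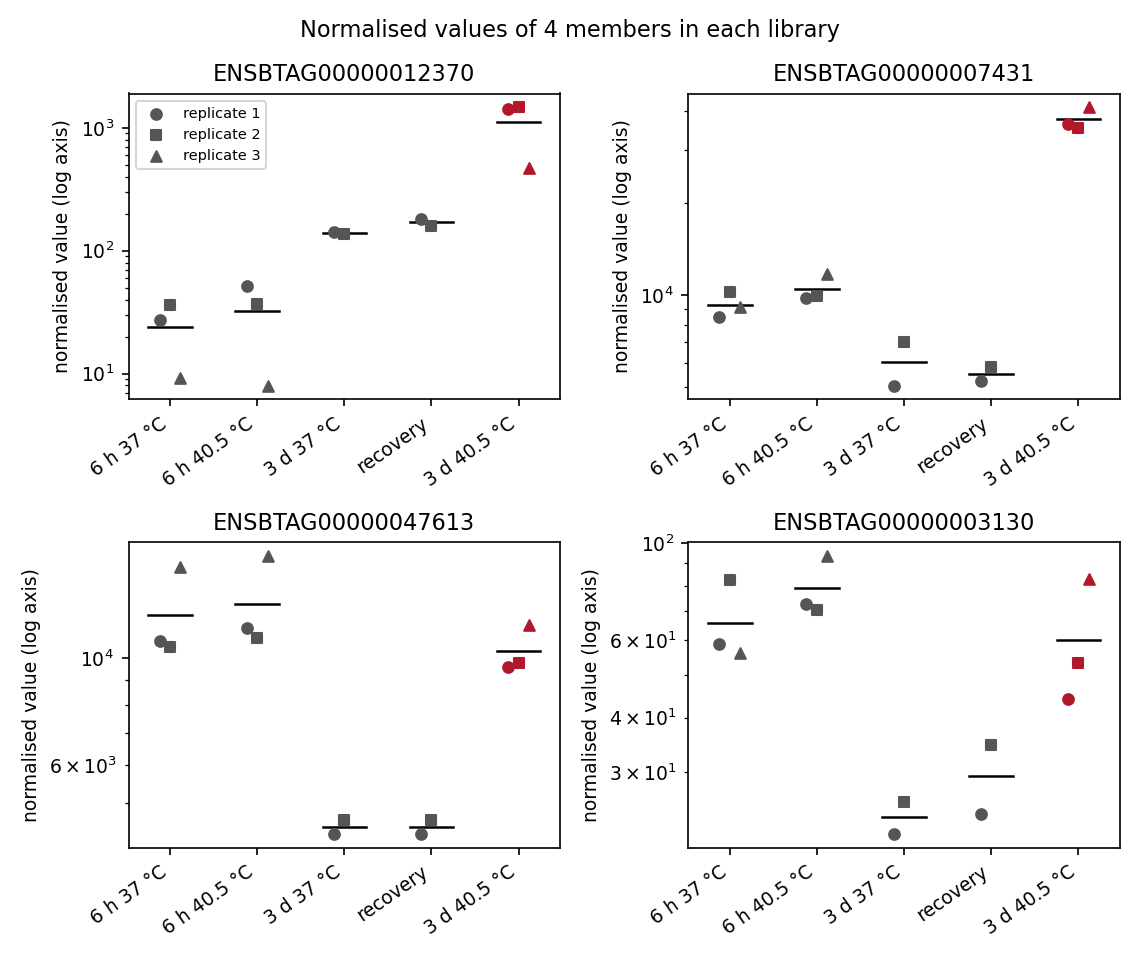
Normalised values (log axis) in each library of 4 genes, with a bar at each group mean and 3-day heat in red. ENSBTAG00000012370 and ENSBTAG00000007431 rose above every other group after 3 days of heat, while ENSBTAG00000047613 and ENSBTAG00000003130 overlapped the 6 h groups and were low in the 3-day control and recovery groups.

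The spread within groups was larger in the set than among all genes in the mean range. These were not matched to it in abundance, with median mean values of 363 in the set and 671 in the range. The 267 other genes with a 3-day difference of at least 1 were not compared. The median SD on the log2 scale was 0.25 in the 3-day heat group, 0.3 in the 6 h control and 0.22 in the 6 h heat group, against 0.11, 0.14 and 0.13 for the 11182 genes in the mean range. In the groups without a replicate 3 it was 0.12 (3-day control) and 0.11 (recovery), against 0.1 and 0.06. The part of replicate 3 in this spread was not tested. Over all libraries, 2 values of the set rested on fewer than 10 reads.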

How the data were processed

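The authors deposited 1 table of normalised signal per gene, counts scaled by library with DESeq, per the file headers and the submitters' processing notes, which name cutadapt, STAR, HTSeq and the build ARS-UCD1.2. Annotation, strand setting and filters are not given in the sources used here. All values were whole multiples of the value of 1 read, within 0.01 reads, so reads were recovered.

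Groups came from the sample titles, which give 66 h of recovery, while the series text speaks of days. Genes with a value of at least 10 in at least 2 libraries (13684) were fitted as log2(value + 1) with limma 3.58.1 (R 4.3.3, trend, 5 group means, two-sided). Fold changes are on that scale, which understates changes of low genes. The recovered reads were tested with edgeR 4.0.16 and DESeq2 1.42.0 as alternatives. The fit was also run on simulated data with the same dispersion in all genes and no effect of replicate 3. That run therefore does not cover the spread which replicate 3 brings here. Squared differences within replicate pairs were 1.64 to 12.9 times those of sampling noise, and each library counted once.

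The genes and comparisons were chosen with earlier results of these data known. Without gene names, 4 identifiers are printed, the 2 largest 3-day rises and the 2 largest called falls with time, and the gene lists and promoter motifs prepared beforehand were not used.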

Additional observations from a re-analysis of the deposited data

How the results depend on the processing

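Of 93 genes, 19 met a minimum 3-day difference of 1.5, and 36 met limits of 0.2 and 0.3 for the 6 h and recovery differences. Other pseudocounts and scalings gave 85 to 106 genes, and leaving out single libraries gave 69 (without replicate 1 of the 3-day control) to 112 (without its replicate 2). The genes themselves also changed: with single libraries left out, as few as 58 of the 93 still met the rule. Without replicate 3 of the 3-day heat group, 77 genes met it, of which 62 were among the 93. Of genes chosen in replicate 2, 70.2% had a difference of at least 1 in replicate 1. The change with time at 37 °C was called in 30 genes, 18 lower and 12 higher. Over all tested genes 25.3% were called, and that share moved with the settings. The calls became 59 (30 and 29) within replicates 1 and 2 (43.5% of all genes), 50 with a term for replicate 3 (26 higher, 36.6%), and 46 with array quality weights (22 higher, 35.9%). The weights, and the term for replicate 3 in the choice of genes, were chosen after seeing the data. A fit of the controls alone called 20, 9 lower and 11 higher, where 6.17% and 5.93% of all genes were (12.1% in all). An adjusted p of 0.01 left 15 (8 and 7). The share over all genes at that level is not given, so nothing is read from this count. With the replicate number as a block they were 49 (26 higher, 36.7%). Same-numbered libraries correlated in their deviations with r of 0.27 to 0.72 among the groups with 3 replicates. Replicates 1 and 2 also correlated across groups: replicate 1 of the 6 h control had 0.51 with replicate 1 of the 6 h heat group and 0.47 with its replicate 2. These r thus do not show pairing by number. Between the controls compared here r was -0.05 and 0.13, but the 2 libraries of the 3-day control deviate by equal and opposite amounts. Pairing of the controls was therefore not settled, and the numbers were not taken to pair them. Leaving out single libraries gave 7 (6.37% of all genes) to 33 in all, 2 to 19 lower and 5 to 14 higher. The 33 and 19 came without replicate 3 of the 3-day heat group, where 27.5% of all genes were called and 14.7% were lower. The 14 were seen in that fit (12.9% of all genes) and without replicate 3 of the 6 h control (11.9%). The lowest counts all came without replicate 1 of the 3-day control, which left 1 library in that group. Nothing about the set is read from them. On the recovered reads edgeR called 28 (of 3511 over all tested genes) and DESeq2 31 (of 3848). The 3-day differences of the 4 printed genes stayed within the spread between replicates under all alternatives tried. Depth limits the lowest values, 7 and 8 reads. The cause of these shifts was not tested.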
